A study of Mus musculus with 2 samples.

Results

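Heme is built from glycine and succinyl-CoA in a chain of enzyme steps that begins and ends in the mitochondrion. The 9 genes described here are the 2 isoenzymes of the first step (Alas1, the form used in most tissues, and Alas2, the erythroid form), the cytosolic enzymes Alad, Uros and Urod, the late enzymes Cpox, Ppox and Fech, of which Fech inserts the iron, and Slc25a37 (mitoferrin), the carrier that brings iron into the mitochondria of maturing red cell precursors. They were chosen by symbol, and all 9 were among the 27998 genes counted. No rule on a measured value was used, but earlier results of these data were known when they were chosen. Red cell precursors are known to make most of the heme of the body, for hemoglobin, while other cells make smaller amounts for cytochromes, catalase and peroxidases.

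Cells came from the femoral metaphysis of Gli1-CreERT2; Ai9 mice of mixed background, in which tamoxifen turns on the red reporter tdTomato in cells that express Gli1 and in their descendants. Both groups carried these alleles, were 1 month old, and received tamoxifen on 3 days and then 3 daily injections of vehicle or of teriparatide, a fragment of parathyroid hormone, at 400 ng per g of body weight. The sort kept tdTomato+ cells and left out CD31, CD45 and Ter119, surface proteins of endothelial, white blood and red blood cells, and each group gave 1 library of single cells read from the 3' end of the mRNA. Per the paper, each group held several mice, with the same mix of males and females in both groups. No cell is assigned to an animal here. With 1 library a group there is no replicate and no test, so all 95% intervals below cover counting error between molecules or cells only, and treatment, library and animals cannot be told apart.

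The vehicle library kept 549 cells and the teriparatide library 1217 cells after the study's limits on genes and mitochondrial RNA, with medians of 10875 and 14556 unique molecular identifiers (UMIs, 1 per captured mRNA molecule) a cell. The labels call the cells bone mesenchymal progenitors, and gating on marker genes placed 415 and 582 of them in a mesenchymal class. A further 44 vehicle and 158 teriparatide cells were gated as erythroid and 56 and 380 as myeloid, although the sort left out Ter119 and CD45. The gate used the marker lists, so the following values describe it and test nothing. Every one of the 15 erythroid marker genes was detected in the erythroid class of both libraries, and their summed level was 0 and 4.99 counts per 1000000 UMIs (CPM) in the myeloid and 8.40 and 7.22 CPM in the mesenchymal class, against 7588 and 7884 CPM in the erythroid class. Of the 10 genes highest by fold in late erythroid cells, 4 were in the marker lists, and the others included the globins Hba-a2 and Hbb-bt. The libraries differed widely for Hba-a2, with 277 CPM in vehicle and 12460 CPM in teriparatide late erythroid cells. For Hbb-bt they were close, at 65792 and 62181 CPM. The myeloid markers summed to 4.14 and 17.8 CPM in the erythroid class, and 13 and 3 of the 15 were at 0 there. The erythroid cells were split into early and late ones by 2 short gene lists that hold none of the 9 genes. The early class was small, with 9 vehicle and 10 teriparatide cells, and in the vehicle library also shallow, with a median of 1737 UMIs. The late class held 35 and 148 cells. The libraries shared 2 barcodes.

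The regions upstream of 7 of the 9 genes were matched in a RefSeq table (GRCm38.p6). GATA1, the main transcription factor of red cell precursors, binds short sites of the GATA type, so the 250 bases before each start were searched on both strands for such sites. The letters searched were AGATAA as the first form, TGATAA as the second form, AGATAG as a further form and TGATAG as the last form. The 2 stretches shown are those of the members whose first listed start had a match, cut where an annotated exon begins, with the matches in capitals.
Alas2, chromosome X, chrX:150547167-150547374, plus strand: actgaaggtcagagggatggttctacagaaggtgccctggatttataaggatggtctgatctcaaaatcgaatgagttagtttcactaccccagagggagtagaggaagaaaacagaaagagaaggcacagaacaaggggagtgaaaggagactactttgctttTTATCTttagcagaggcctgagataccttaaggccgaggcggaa
Cpox, chromosome 16, chr16:58669958-58670207, plus strand: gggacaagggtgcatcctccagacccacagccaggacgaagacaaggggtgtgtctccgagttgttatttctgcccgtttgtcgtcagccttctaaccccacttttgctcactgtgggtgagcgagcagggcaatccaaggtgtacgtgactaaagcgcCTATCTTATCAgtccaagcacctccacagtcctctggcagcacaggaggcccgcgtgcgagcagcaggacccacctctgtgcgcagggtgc

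The Alas2 match began 86 bases before the RefSeq start. Cpox held 2 matches that share a base, beginning 91 and 86 bases before its start. A second start of Uros, inside the gene, had matches 205 and 68 bases upstream. None was found in these windows of Alas1, Alad, Urod or Ppox. Both Alas1 windows lay inside the gene, with 250 and 235 of their bases in annotated exons. The sequence upstream of the whole Alas1 gene was therefore not searched. Of 27025 genes, 27.1% held at least 1 match in the same window, so a match is a description of the letters and not of binding.

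The first step of heme synthesis was divided between the 2 isoenzymes by cell type. In late erythroid cells, Alas2 (ENSMUSG00000025270, chromosome X from 150547375 to 150570638) reached 1385 CPM in the vehicle library and 1462 CPM in the teriparatide library, from 641 and 2319 UMIs. It was found in 33 of 35 and 144 of 148 late cells, and the median late cell had 1510 and 1706 CPM. In the mesenchymal and myeloid classes it was at the edge of detection, with 3 UMIs in 415 vehicle and 4 UMIs in 582 teriparatide mesenchymal cells, and 0 and 2 UMIs in 56 and 380 myeloid cells. Ungated cells held 22 and 95 UMIs of it, as described further below. Alas1 (ENSMUSG00000032786, chromosome 9 from 106233455 to 106248654) went the other way. Of all UMIs of the 2 genes, Alas2 held 99.8% (exact interval 99.1 to 100) in erythroid cells of the vehicle library and 99.7% (99.4 to 99.9) in those of the other library. The share was 3.12% (0.649 to 8.86) and 2.03% (0.556 to 5.12) in mesenchymal cells.

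Alas1 was highest in the granulocyte line. The 11 granulocyte progenitors of the teriparatide library had 355 CPM (301 to 416), and every one of them held a UMI of the gene. The only granulocyte progenitor of the vehicle library had 364 CPM. Neutrophils followed with 106 CPM (70.2 to 153) after vehicle and 78.9 CPM (69.9 to 88.6) after teriparatide, with a UMI in 10 of 27 and 111 of 233 cells. Progenitors and neutrophils of the teriparatide library were thus well apart, by more than their counting error. Monocytes stood at 22.3 CPM (6.09 to 57.2) and 24.1 CPM (17.3 to 32.8), and here the vehicle value rests on 4 UMIs. The mesenchymal classes spanned 7.61 CPM in vehicle osteoblasts to 20.6 CPM in vehicle MALPs (marrow adipogenic lineage precursors), which overlap the monocyte interval of that library. With teriparatide, the interval of osteoblasts, at 11.3 CPM (7.996 to 15.5), lay wholly below that of monocytes, while the intervals of chondrocyte-like cells, at 14.9 CPM (12.4 to 17.8), and MALPs, at 14.6 CPM (9.17 to 22.2), overlap it. In late erythroid cells Alas1 stood at 2.16 and 3.78 CPM (1.39 to 8.24), from 1 and 6 UMIs. Myeloperoxidase, a heme protein of granules, had 4504 CPM in the teriparatide granulocyte progenitors and 20.7 CPM in the neutrophils of that library. Cybb, the heme-bearing subunit of the phagocyte oxidase, had 551 and 1591 CPM in the same 2 classes.

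**Figure D1:**
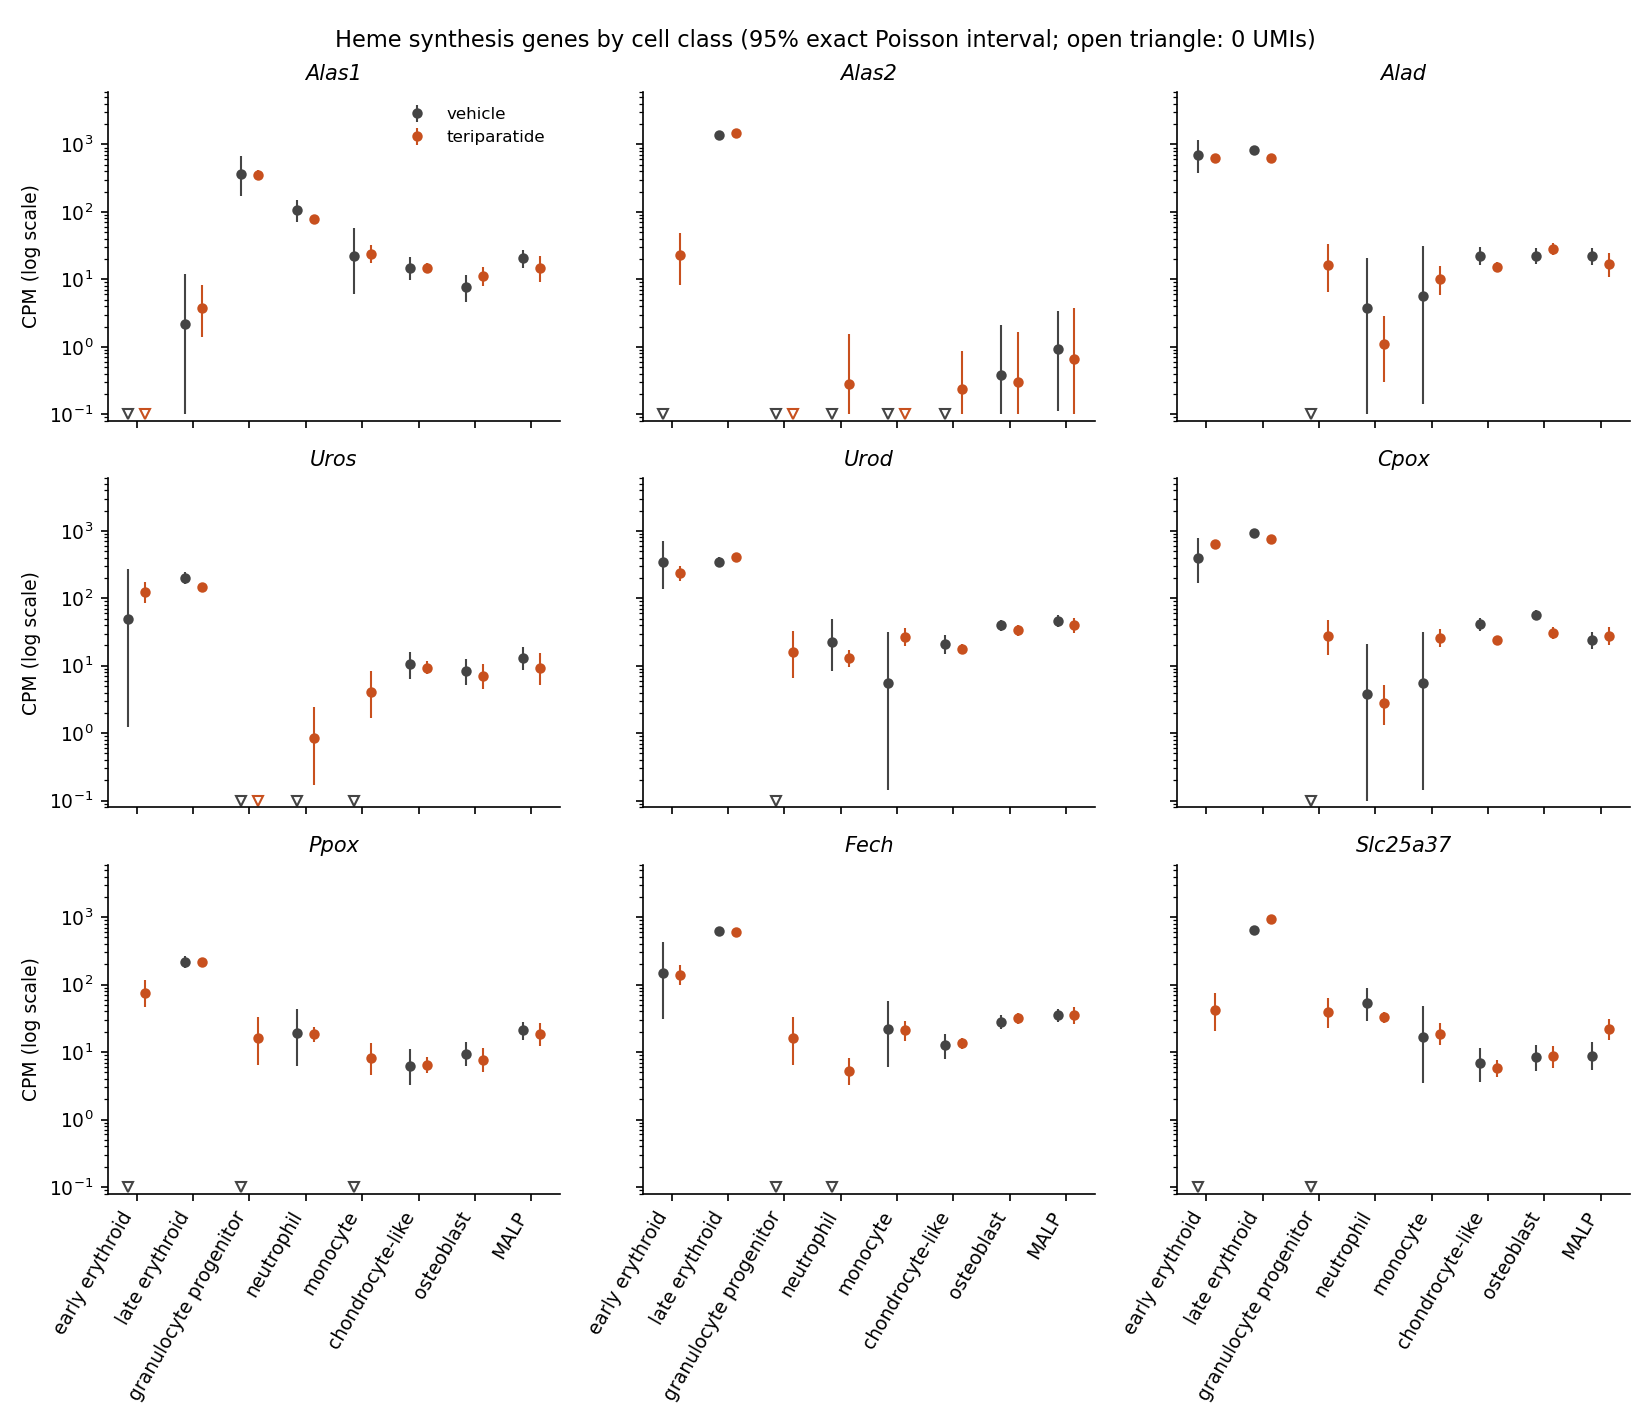
Levels of the 9 genes in 8 marker-gated cell classes, in counts per 1000000 UMIs on a log axis, for the vehicle (grey) and teriparatide (orange) libraries; bars are 95% exact Poisson intervals cut at 0.1 CPM, and open triangles mark classes with 0 UMIs. Alas1 peaks in granulocyte progenitors at 364 and 355 CPM, and the other genes peak in erythroid cells.

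The other 8 genes were all higher in erythroid than in mesenchymal cells, by at least 9.38-fold with vehicle and 15.8-fold with teriparatide. For 8 of the 9 genes the erythroid level was at least 2-fold the mesenchymal one in both libraries. Over all genes with at least 50 UMIs, 7.95% (vehicle) and 10.4% (teriparatide) were at least 2-fold higher. Alas2 differed most, by 3002-fold and 4265-fold, from very few mesenchymal UMIs. Next was Slc25a37 (ENSMUSG00000034248, chromosome 14 from 69241848 to 69285112), at 621 against 8.40 CPM and 804 against 8.47 CPM. Urod (ENSMUSG00000028684, chromosome 4 from 116989965 to 116994413) differed least in the vehicle library, at 346 against 36.9 CPM. Alas1 was lower in erythroid cells, at log2 ratios of -2.73 and -2.13 with intervals of -8.05 to -0.21 and -3.60 to -0.98. Lower values were common in this comparison, in which 55.4% (vehicle) and 58.3% (teriparatide) of all genes were at least 2-fold lower and the median gene stood at -1.21 and -1.43.

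Against myeloid cells, 8 of the 9 genes were again at least 2-fold higher in erythroid cells in both libraries, where 15.4% (vehicle) and 12.6% (teriparatide) of all genes were. Alad (ENSMUSG00000028393, chromosome 4 from 62509169 to 62519918) had 814 against 3.81 CPM in the vehicle and 626 against 5.16 CPM in the teriparatide library. Cpox (ENSMUSG00000022742, chromosome 16 from 58670292 to 58717636) had 911 against 3.81 CPM and 743 against 11.9 CPM. In the vehicle myeloid class, 3.81 CPM corresponds to 2 UMIs, with an interval of 0.461 to 13.8 CPM. The gap was smallest in the teriparatide library for Ppox (ENSMUSG00000062729, chromosome 1 from 171275990 to 171281186), at 194 against 15.0 CPM. Uros (ENSMUSG00000030979, chromosome 7 from 133686243 to 133710072), the enzyme that closes the ring, had 1 and 11 UMIs in all myeloid cells.

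Within the myeloid class the pathway was uneven. In the 233 neutrophils of the teriparatide library, Alas1 had 282 UMIs and Slc25a37 118, while Alad had 4, Uros 3 and Cpox 10. All 9 genes together had 549 UMIs in these neutrophils, and Urod and Fech are not among those given here. Alad, Uros and Cpox were at 1.12, 0.839 and 2.80 CPM there, against 10.0, 4.12 and 25.9 CPM in the 124 monocytes of the same library. The intervals of neutrophils and monocytes do not overlap for Alad (0.305 to 2.86 against 5.83 to 16.0) or Cpox (1.34 to 5.14 against 18.8 to 34.8). For Uros they do (0.173 to 2.45 against 1.66 to 8.49). Ppox went the other way, with 18.5 CPM (14.3 to 23.5) in neutrophils and 8.25 CPM (4.51 to 13.8) in monocytes. Slc25a37 was also higher in neutrophils, at 33.0 CPM (27.3 to 39.5) against 18.8 CPM (12.9 to 26.6).

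In mesenchymal cells all 9 genes were detected in both libraries, and each of the 8 genes other than Alas2 was found in 12.5 to 41.1% of cells. The part of free RNA from erythroid cells in these counts was not tested, and its composition was not measured. For scale only, the proportions of the erythroid class were set to the 3 and 4 mesenchymal UMIs of Alas2. Alad would then have about 1.84 and 1.99 UMIs, where 152 and 260 were counted. Cpox would have 2.06 and 2.36 UMIs, where 287 and 354 were counted. This scale rests on those 3 and 4 UMIs. Globin mRNA made up 0.00587% of the UMIs in vehicle and 0.0123% in teriparatide cells outside the erythroid and ungated classes. Among mesenchymal classes, Fech (ENSMUSG00000024588, chromosome 18 from 64452914 to 64490251) was higher in MALPs, at 35.1 CPM (27.6 to 44.0) and 35.3 CPM (26.4 to 46.1), than in chondrocyte-like cells, at 12.5 CPM (8.03 to 18.6) and 13.6 CPM (11.3 to 16.4). Urod and Ppox had the same order in both libraries, with 45.8 and 39.9 CPM of Urod in MALPs against 20.9 and 17.7 CPM in chondrocyte-like cells, and with 21.1 and 18.6 CPM of Ppox against 6.27 and 6.52 CPM. In each of these pairs the intervals do not overlap.

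From early to late erythroid cells, Alas2, Slc25a37 and Fech were at least 2-fold higher in both libraries, and Alad differed by less than its counting error. These CPM are over all UMIs, and globin mRNA lowers them in late cells, as set out below. In the teriparatide library Alas2 went from 22.7 CPM (6 UMIs) to 1462 CPM, a 64.4-fold difference with a log2 ratio of 6.01 (4.88 to 7.46). Slc25a37 went from 41.7 to 931 CPM, or 4.48 on the log2 scale (3.64 to 5.49). Fech went from 140 to 598 CPM, a log2 ratio of 2.09 (1.62 to 2.61). Ppox followed with a 2.82-fold difference (log2 interval 0.85 to 2.23), and these 4 of 9 genes were at least 2-fold higher in late cells, where 13.6% of all genes were. Alad had 625 CPM (533 to 728) in early and 626 CPM (588 to 666) in late cells. Cpox differed by 0.27 on the log2 scale (0.03 to 0.51) and Uros by 0.22 (-0.31 to 0.79). Urod, at 239 and 409 CPM, stood between, at 0.78 (0.40 to 1.18).

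The vehicle library had 20217 UMIs in all early cells together, and 3 counts there correspond to 148 CPM. Alas2 and Slc25a37 were at 0 among them and therefore at least 9.34-fold and 4.37-fold higher in late cells. With Fech at 2.05 (0.49 to 4.34), Uros at 2.04 (-0.47 to 7.36, from 1 early UMI) and Cpox at 1.24 (0.25 to 2.46), 5 of the 8 genes with over 3 UMIs were at least 2-fold higher in late cells, beside 17.1% of all genes. Only Alas2, Slc25a37 and Fech were in this group in both libraries. Globin mRNA took 51.2% and 56.6% of all UMIs in late cells and 0.386% and 1.70% in early cells, which lowers the CPM of every other gene in late cells. Over UMIs without globins, 8 of 8 genes in the vehicle library and 8 of 9 in the teriparatide library were at least 2-fold higher in late cells, where 35.1% and 30.6% of all genes were.

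Since the early class was so small, the erythroid cells of both stages were also ordered by the share of globin in their UMIs, which rises as red cell precursors mature. This order was chosen after the data had been seen, and levels along it are UMIs per 1000000 UMIs that are not globin. The 5 ranges held 23, 27, 35, 60 and 57 cells of both libraries together, of which 12, 7, 4, 11 and 10 were vehicle cells. The median number of UMIs that were not globin fell from 15706 in cells under 5% globin to 1486.5 in cells with 75% and over, among cells of at least 3000 UMIs. A higher value in the last range is therefore a larger share of a smaller pool, and RNA lost and RNA kept cannot be told apart.

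Alas2 rose through the whole order. Its level was 51.0 (30.2 to 80.7) under 5% globin, 619 at 5 to 30%, 2116 at 30 to 50%, 5091 at 50 to 75% and 14356 (13582 to 15162) at 75% and over. Fech rose at each step too, from 153 through 453, 1149 and 2162 to 4462. Urod went from 241 through 524, 768 and 1390.2 to 1974. For these genes the last range was above the first in each library by itself, at log2 ratios of 6.77 and 9.32 for Alas2, 4.53 and 5.04 for Fech, and 3.04 and 3.05 for Urod.

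Alad and Cpox had a peak in the middle instead. Alad went from 627 (547 to 715) to 1429, 1957 and 2028 (1839 to 2231), and then to 435 (309 to 595) in cells with 75% globin and over. From the 5 to 30% range to the last one it fell by 2.04 on the log2 scale in the vehicle library (-3.68 to -0.78) and by 1.64 in the teriparatide library (-2.19 to -1.14). Cpox went from 666 to 1336, 2122 and 2867 (2642 to 3106) and then to 1316 (1089 to 1576), about its level at 5 to 30% globin (log2 ratios of -0.73, -1.67 to 0.09, with vehicle and 0.15, -0.18 to 0.47, with teriparatide). Uros was flatter at the top, with 537 (442 to 646) at 50 to 75% and 468 (338 to 633) beyond. Slc25a37 climbed from 68.0 to 3869 at 50 to 75% and stayed at 3938, and Ppox went from 93.6 to 791 and 892, so that for both genes the last 2 ranges overlap.

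In single cells the genes were detected as follows. In cells of at least 3000 UMIs with 75% globin and over, all 56 held Alas2, 55 held Fech and 51 held Slc25a37, while 17 held Alad and 33 held Cpox. At 5 to 30% globin every one of 19 cells held each of the 8 genes other than Alas1. Cells of the last range had fewer non-globin UMIs, so detection there depends on the level of a gene as well as on its change, and these counts were not compared at equal depth. Spearman's rho between a gene's share of non-globin UMIs and the globin share of the cell was 0.96 (32 vehicle cells) and 0.92 (130 teriparatide cells) for Alas2, 0.95 and 0.77 for Fech, and -0.42 and -0.52 for Alad. These are descriptions over cells of 1 library each, which share depth and the globin count.

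**Figure D2:**
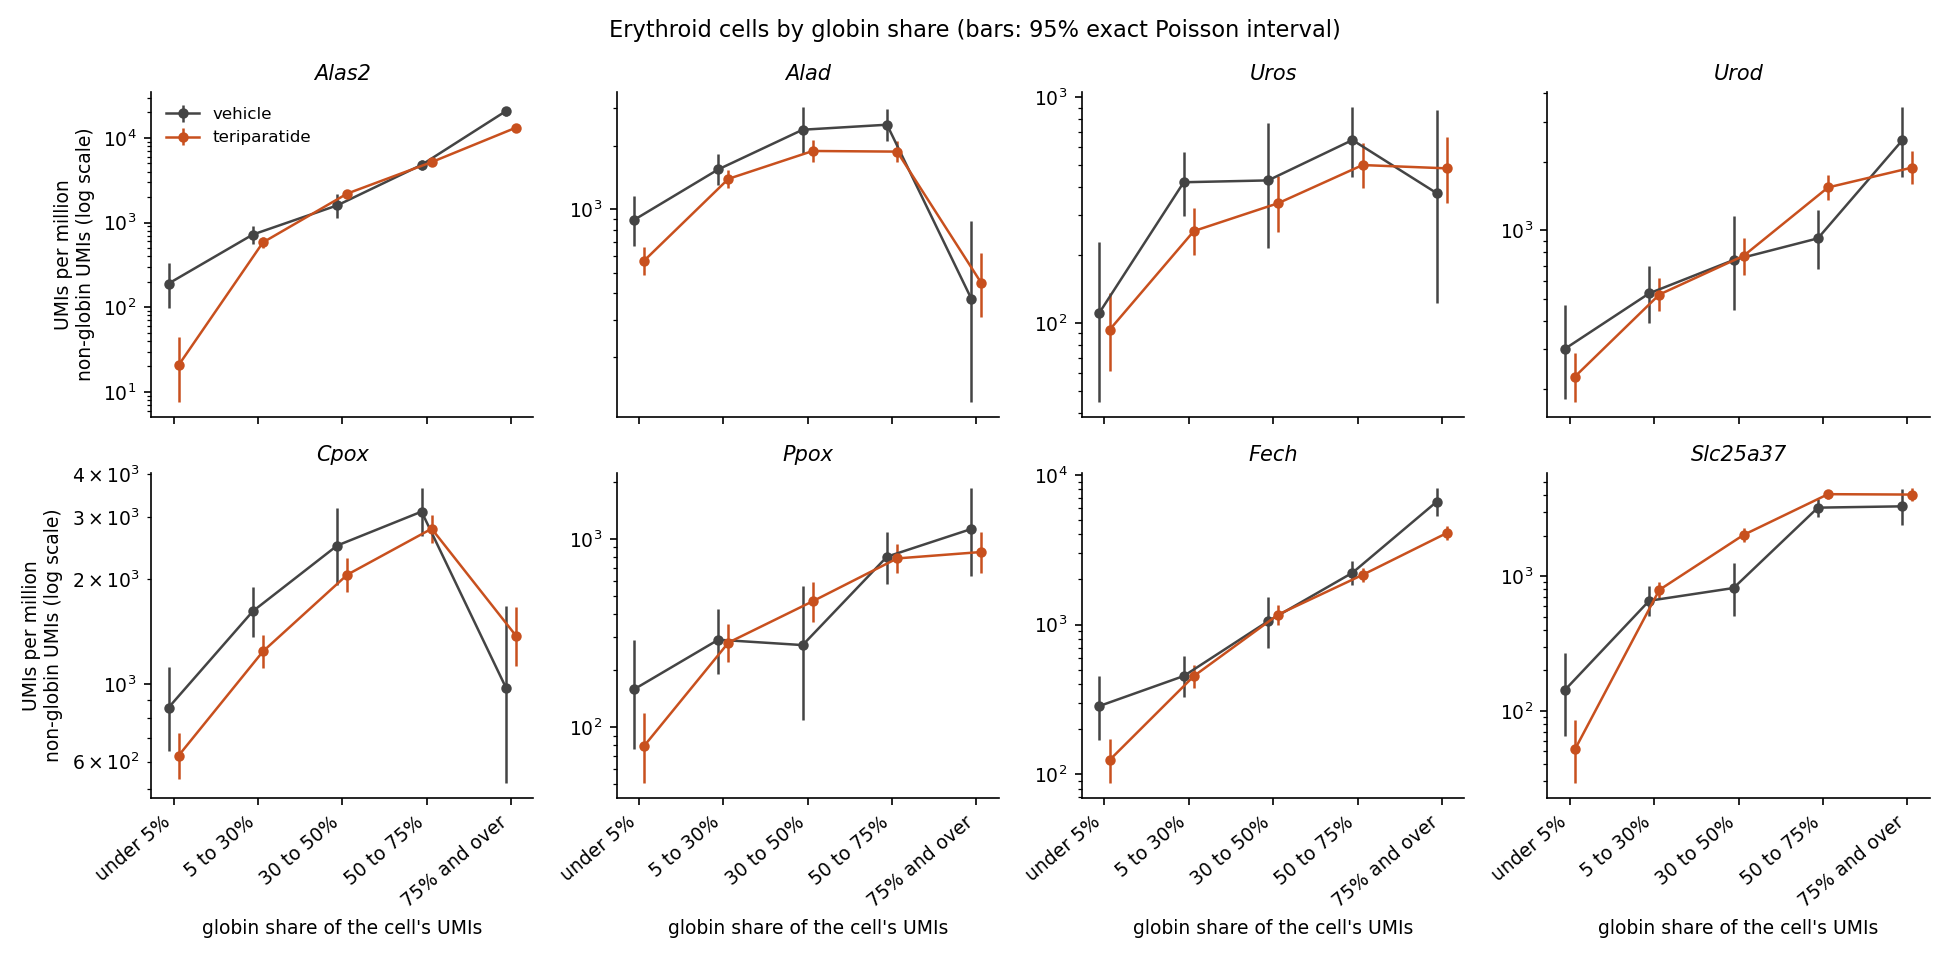
Levels of the 8 genes other than Alas1 in erythroid cells grouped by the globin share of their UMIs, as UMIs per 1000000 non-globin UMIs on log axes that differ between panels; lines join the ranges of each library and bars are 95% exact Poisson intervals. Alas2, Fech and Urod are highest at 75% globin and over, while Alad and Cpox are highest at 50 to 75% or before.

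**Figure D3:**
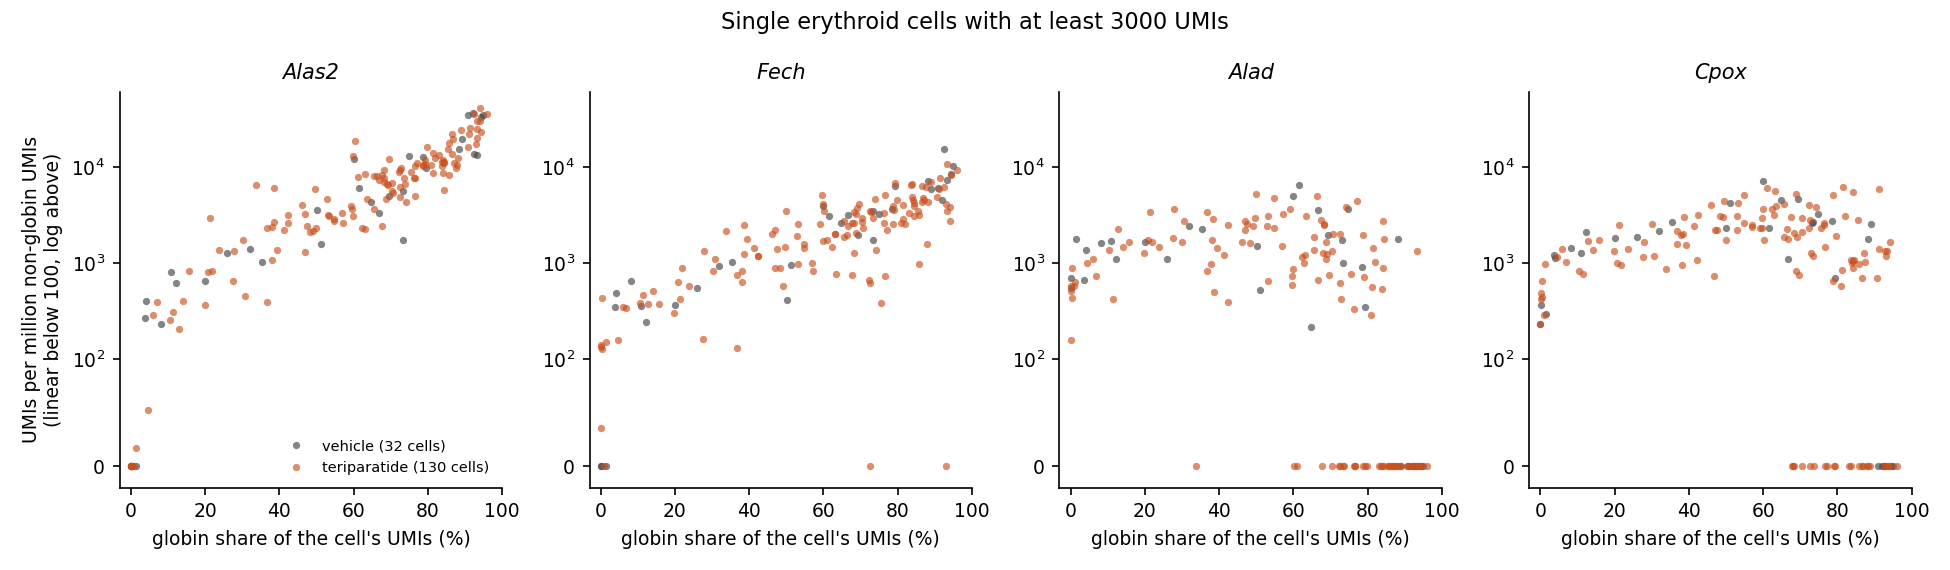
Each point is 1 erythroid cell with at least 3000 UMIs (32 vehicle, 130 teriparatide), with the globin share of its UMIs on the x axis and the gene's UMIs per 1000000 non-globin UMIs on the y axis, linear below 100 and log above. Alas2 and Fech climb with the globin share, and the cells without a UMI of Alad or Cpox lie almost all beyond 60% globin.

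Some related genes were also followed along the globin order. They were chosen after their values were seen, and their levels are over both libraries together. Tmem14c, which moves a porphyrin precursor into the mitochondrion, went from 1162 under 5% globin to 2264 at 5 to 30% and then to 22.3 (2.70 to 80.6) at 75% and over, and Slc25a38, the mitochondrial glycine carrier, from 82.2 through 336 at 50 to 75% to 89.2. Tfrc, the transferrin receptor, peaked at 3394 at 50 to 75% and stood at 1941 beyond. The libraries differed for it: from 5 to 30% globin to the last range its log2 ratio was -0.55 (-1.59 to 0.35) with vehicle. With teriparatide it was 0.80 (0.52 to 1.08). Slc25a39, a mitochondrial carrier, continued upward from 85.1 to 1974. Of all genes, 7.95% with vehicle and 10.4% with teriparatide were at least 2-fold higher in erythroid than in mesenchymal cells. In the list of carriers, 5 of 8 and 6 of 8 genes were. Among them was Abcb10, a transporter of the inner mitochondrial membrane, at 228 and 252 against 8.40 and 5.89 CPM. Slc25a28, the mitoferrin of other tissues, was lower in both, at 2.07 and 4.32 CPM in erythroid and 14.0 and 14.7 CPM in mesenchymal cells. At least 2-fold lower there were 55.4% and 58.3% of all genes. Slc25a37 was higher and Slc25a28 lower in erythroid cells, the same directions as Alas2 and Alas1. The Slc25a28 counts were 1 and 8 erythroid UMIs. For Slc25a28 and Alas1, the counting intervals of both libraries held the median log2 ratio of all genes given above. Neither decrease was therefore set apart from that of the median gene.

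Of the 8 genes for iron-sulfur clusters, which Fech carries, 5 (vehicle) and 6 (teriparatide) were at least 2-fold higher in erythroid than in mesenchymal cells and none was lower. Among all genes, 7.95% and 10.4% were higher and 55.4% and 58.3% lower. Glrx5, a glutaredoxin of cluster assembly, led by level with 1044 and 899 against 77.2 and 55.3 CPM. Of 10 genes for iron uptake and storage, 2 and 3 were higher and 3 and 3 lower, both lower counts being under the share of all genes that were lower, with Tfrc at 642 and 854 against 57.2 and 63.2 CPM and Hfe, a regulator of iron sensing, at 0 UMIs in erythroid cells of both libraries. Of 10 genes for heme export, breakdown and sensing, 4 and 5 were higher and 2 and 4 lower, against the same shares of all genes. Hmox1, the inducible enzyme that breaks heme down, had 0 and 1 erythroid UMIs against 21.8 and 18.2 CPM in mesenchymal cells, Blvrb, a biliverdin reductase, had 2050.2 and 1488 against 46.3 and 33.4 CPM, and Eif2ak1, the kinase that senses heme in red cell precursors, had 137 and 211 against 14.4 and 16.1 CPM.

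Between the libraries, none of the 9 genes differed 2-fold over the late erythroid cells as a whole. Few of all genes did, with 3.16% at least 2-fold higher and 4.03% lower in the teriparatide library. The count of 0 therefore does not set the 9 genes apart. The median gene stood at a log2 ratio of -0.24. Alas2 was at 0.08 (-0.05 to 0.21), Fech at -0.04 (-0.24 to 0.15) and Ppox at -0.02 (-0.34 to 0.32). For these, a 2-fold difference lies outside the counting interval over all late cells. By sex, Alas2 was at 0.68 (0.44 to 0.93) in male and -0.65 (-0.95 to -0.34) in female late cells. Ppox was at 0.15 (-0.34 to 0.67) and -1.19 (-1.88 to -0.44). Slc25a37 was higher with teriparatide, at 931 (885 to 980.2) against 648 CPM (577 to 726), a log2 ratio of 0.52 (0.34 to 0.71), but the direction turned in female late cells, at -0.60 (-0.96 to -0.24) from 6 and 29 cells. Alad was lower, at 626 against 819 CPM and -0.39 (-0.56 to -0.21), as were Uros at -0.48 (-0.83 to -0.12) and Cpox at -0.29 (-0.45 to -0.13). The intervals of Alad, Uros and Cpox all held the median gene's ratio of -0.24, so their decreases were not set apart from it.

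The median late cell had a globin share of 59.97% with vehicle and 63.1% with teriparatide, while the medians over all erythroid cells were 41.7% and 60.6%. Within the 50 to 75% range, with 11 and 49 cells, Alad was still lower with teriparatide, at 1872 against 2510 (log2 ratio -0.42, -0.73 to -0.11), and Slc25a37 higher, at 0.33 (0.08 to 0.59). Cpox, at -0.16 (-0.43 to 0.11), had an interval across 0 there, and Urod was higher at 0.74 (0.29 to 1.23). At 5 to 30%, with 7 and 20 cells, Cpox was lower at -0.38 (-0.66 to -0.10) and Uros at -0.72 (-1.30 to -0.11). In each other range Cpox and Uros had intervals across 0. Alad was lower under 5% too, at -0.64 (-1.09 to -0.18), and had intervals across 0 in the remaining ranges. At 75% and over, with 10 and 47 cells, Alas2 was lower with teriparatide at -0.65 (-0.84 to -0.45) and Fech at -0.70 (-1.04 to -0.34), although both intervals reach across 0 over late cells as a whole. This range has no upper limit, and a larger part of its vehicle than of its teriparatide cells lay near its top. Both genes rise with the globin share, and the part of this mix in their ratios was not tested. Slc25a37 was higher with teriparatide at 30 to 50%, by 1.31 (0.67 to 2.02) from 4 and 31 cells. Under 5%, with 12 and 11 cells, Alas2 was lower at -3.20 (-4.90 to -1.67), Fech at -1.20 (-2.05 to -0.30) and Slc25a37 at -1.46 (-2.75 to -0.09). These ratios rest on few cells. Among cells of at least 3000 UMIs in this range, Alas2 was found in only 2 of 5 vehicle and 2 of 8 teriparatide cells. Fech was found in 2 of 5 and 7 of 8, and Slc25a37 in 2 of 5 and 5 of 8.

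In early erythroid cells only Uros passed 2-fold between the libraries, at 1.34 on the log2 scale (-1.24 to 6.68) from 1 vehicle and 33 teriparatide UMIs, an interval that spans both directions. Of all genes tested there, 13.1% were at least 2-fold higher and 7.3% lower. Alad, with 14 and 165 UMIs, was at 692 and 625 CPM.

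In mesenchymal cells none of the 9 genes differed 2-fold either, beside 4.84% of all genes higher and 5.91% lower and a median log2 ratio of -0.21. Cpox was lower with teriparatide, at 26.1 against 42.3 CPM and a log2 ratio of -0.70 (-0.93 to -0.47), and so were Ppox at -0.65 (-1.07 to -0.23) and Urod at -0.60 (-0.84 to -0.36). The classes within did not share this alike. Cpox was lower in chondrocyte-like cells (-0.78, -1.17 to -0.39) and osteoblasts (-0.89, -1.27 to -0.52), and at 0.23 (-0.40 to 0.85) in MALPs. Urod and Ppox had intervals across 0 in each of the 3 classes. Chondrocyte-like cells, in which both were low, held 73 of 415 vehicle and 281 of 582 teriparatide mesenchymal cells. The part of this shift between classes in the lower Urod and Ppox was not tested. Slc25a37, at 0.01 over the mesenchymal cells, was higher in MALPs with teriparatide, at 21.96 against 8.89 CPM (21 of 115 cells with a UMI against 18 of 190, log2 ratio 1.30, 0.45 to 2.20). The share of male cells among mesenchymal cells with a call also moved, with 176 male and 161 female vehicle cells and 450 male and 48 female teriparatide cells, and its part in these differences was not tested.

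**Figure D4:**
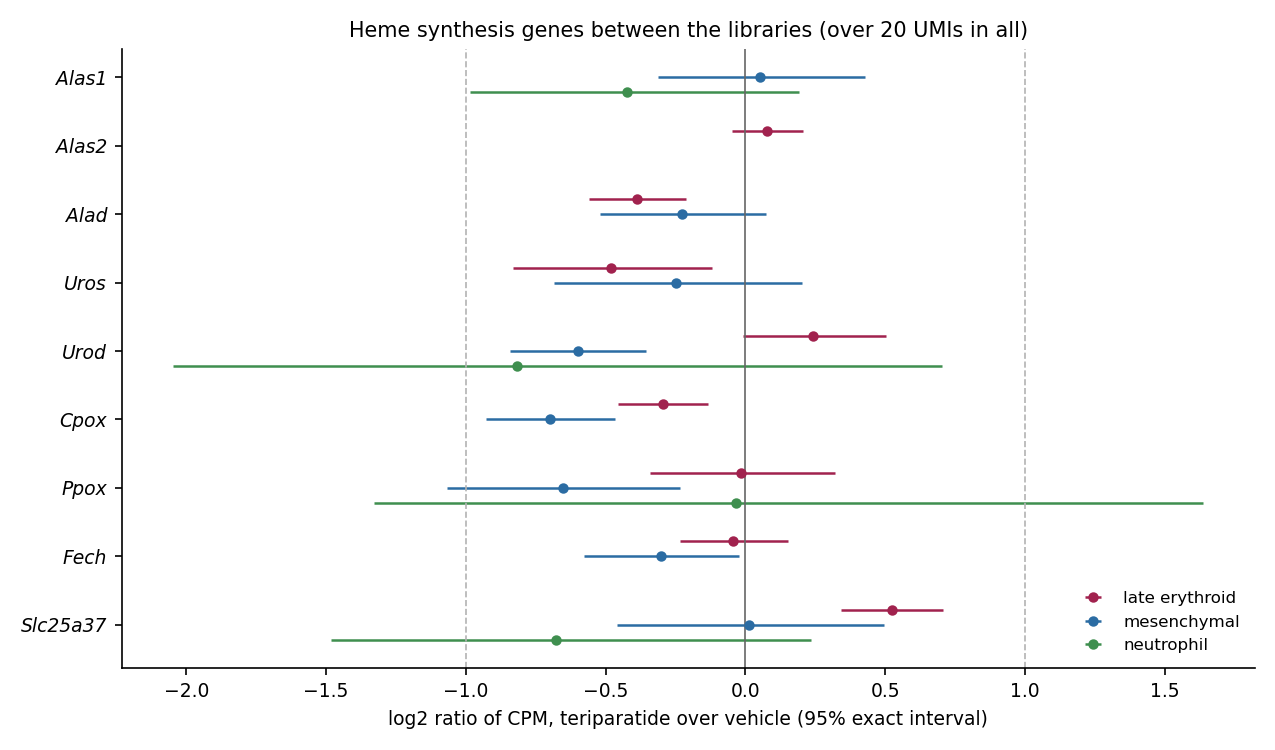
Log2 ratios of CPM, teriparatide over vehicle, for the 9 genes in late erythroid cells, mesenchymal cells and neutrophils, with 95% exact intervals for pairs with over 20 UMIs; dashed lines mark 2-fold. None of the points drawn lies beyond 2-fold (Alad in neutrophils, with 4 and 1 UMIs, is not drawn), Slc25a37 in late erythroid cells is at 0.52, and Cpox in mesenchymal cells is at -0.70.

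The genes most like each member were found by Pearson's r of log2(CPM + 10) over 16 points, 8 classes in 2 libraries, among 9273 genes with at least 200 UMIs, and these points share libraries and include classes of 1 to 281 cells. Alad and Cpox were each other's close neighbours (r = 0.98), with Ifrd2 next to both (0.99 and 0.97), and Cpox was nearest to Uros (0.97) and Alad to Urod (0.97). Alas2 was nearest to Apol11b (1.00), Trim10 (1.00) and Epb42 (0.99), of which Trim10 and Epb42 helped to define the late class. Fech was nearest to Fam210b (0.98), a mitochondrial protein of erythroid cells, and Slc25a37 and Ppox shared Stradb (0.95 and 0.96) as nearest gene. Alas1 was nearest to Gys1 (0.96), a glycogen synthase, and had a negative r with each of the other 8 members, from -0.73 with Urod to -0.22 with Slc25a37. Counts at the 3' end can mix genes on 1 strand, and Gm20236 overlaps Slc25a37 on its strand but was not among the genes counted.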

How the data were processed

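Per the labels, alignment to mm10 and counting of UMIs by gene and barcode were done by the authors in Cell Ranger (2.1.0 in the submitters' processing notes, 3.1.0 in the matrix header), and what was deposited is raw UMI counts without normalization. Barcodes with 200 to 6000 genes and at most 10% mitochondrial UMIs were kept (549 of 1286 vehicle and 1217 of 2142 teriparatide, with 10567335 and 26270041 UMIs deposited). A cell was gated by the marker list of which it had the largest share of genes detected, with at least 3 genes and at least 2 times the share of the next list. No doublet caller was run, and cells that failed either limit stayed ungated. UMIs were summed over a class, divided by its total and given per 1000000 (CPM). Levels have exact Poisson, shares Clopper-Pearson and ratios exact conditional binomial intervals at 95%, computed with Python 3.11.15 and scipy 1.17.1. They cover counting error only. A level of 0 was set to 3 counts for a bound on a fold, and background shares cover genes with at least 50 UMIs. The ratios were tried on simulated Poisson counts, which hold no spread between cells, so this check too covers counting error only. Sex was called per cell from Xist or from Y-linked genes. Named were all 9 genes, related-list genes past 2-fold, and the 3 genes most like each; related genes along the globin order were chosen after their values were seen. The members and lists were chosen with earlier results of these data known. Alternative gates, limits, scalings, depths and sexes were tried. Positions are GENCODE vM21. A related gene is not reported here.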

Additional observations from a re-analysis of the deposited data

Results flagged for a closer look

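Alas2 UMIs lay outside the classes described above. Barcodes that the limits on genes and mitochondrial RNA left out held 57 Alas2 UMIs after vehicle and 259 after teriparatide, of which 46 and 246 were in 6 and 25 barcodes with 75% globin and over and a median of 123 and 121 genes. Ungated cells held 22 and 95 Alas2 UMIs, all 22 in 1 vehicle cell with 75% globin and over and 270 genes. In the teriparatide library 6 ungated cells held a UMI of Alas2, and 38 of the 95 were in the 2 cells with 75% globin and over. The left-out barcodes and the ungated cells are both above the 3 counts that a count of 0 allows, and they are in none of the comparisons.

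The library difference of Alas2 and Slc25a37 had opposite signs in male and female late erythroid cells, with both intervals away from 0; the difference between the sexes was not tested. Alas2 had a log2 ratio of teriparatide over vehicle of 0.68 (0.44 to 0.93) in male cells and -0.65 (-0.95 to -0.34) in female cells, and Slc25a37 of 0.82 (0.53 to 1.13) and -0.60 (-0.96 to -0.24). The male cells were 12 vehicle and 47 teriparatide cells with a median globin share of 23.0% and 61.0%, and the female cells were 6 and 29 with 56.3% and 47.4%, so the globin share moved the same way as both genes. Ppox and Fech also had opposite signs, at 0.15 (-0.34 to 0.67) and 0.27 (-0.06 to 0.61) in male cells, where the intervals span 0, and -1.19 (-1.88 to -0.44) and -0.55 (-0.98 to -0.11) in female cells. A further 17 and 72 late cells had no sex call.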

How the results depend on the processing

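No paired analysis was possible because each group had 1 library, and no replicate could be left out. Over the alternatives tried, 664 of 844 ratios of single genes stayed within their main counting interval, 180 moved beyond it, and none of those at least 2-fold changed sign. The counts of 8 genes higher in erythroid than in mesenchymal or myeloid cells stayed at 8 under every alternative run. The late against early count of 5 genes in the vehicle library became 8 over UMIs without globins and 2 with cells thinned to 3000 UMIs, and the count of 4 in the teriparatide library became 8 over UMIs without globins and 8 in female cells, where the early class is 1 cell; the vehicle early class has no sexed cell, so those ratios could not be had. Between libraries, the count of 1 in early cells became 0 with a gate of 5 markers, a lead of 3, or cells near the split left out. The count of 0 in late cells became 1 in female cells (Ppox), in the mean of per-cell CPM (Slc25a37) and with median-ratio scaling (Alas1, 7 UMIs in all). In the ranges of globin share, chosen after seeing the data, 1 gene passed 2-fold at 30 to 50% globin (Slc25a37) and 3 under 5% (Alas2, Fech and Slc25a37). These ranges pool early and late erythroid cells, so they are other sets of cells than the late class. The count of 0 in mesenchymal cells became 1 with thinning (Fech), in female cells (Slc25a37) and in the mean of per-cell CPM (Alas2, 7 UMIs in all). Alas2 in late cells, 1385 and 1462 CPM, became 2842 and 3370.3 over UMIs without globins, 822 and 1318 in male cells, 1726 and 1098 in female cells, 1705 and 1912 as the mean of cells, 1526 and 1627 without cells near the split, and 1756 in the thinned teriparatide library. Alas1 in neutrophils, 106 and 78.9 CPM, became 64.1 and 67.9 with thinning and, in the teriparatide library, 100.4 in female cells and 65.8 as the mean of cells. The causes were not tested. With genes of at least 10 UMIs, the share of all genes higher in late than in early cells became 4.76% and 8.55%, the shares higher and lower with teriparatide became 6.58% and 15.1% in early and 6.95% and 10.6% in late cells, and the share higher with teriparatide in mesenchymal cells became 7.78%. Depth limits the vehicle early class, with 20217 UMIs in all, and the vehicle granulocyte progenitors, which are 1 cell.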
